A study of Mus musculus with 6 samples.

Results

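Mouse splenic B cells carrying the transcription factor Sox2 were compared with cells carrying the empty vector for 36 genes of DNA replication and S phase, the part of the cell cycle in which the genome is copied. The members were chosen by symbol from a list of replication factors, and all 36 were found among the 37620 genes of the count table. All 36 passed the filter on low counts. They cover the licensing of replication origins, the helicase and its activators, the sliding clamp and its loader, the polymerases, Okazaki fragment joining, nucleotide supply, entry into S phase and histone supply.

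Both groups were B cells of C57Bl/6 mice aged 4 months, activated in culture by anti-CD40 (1 µg/ml) together with IL-4 (12.5 µg/ml). One group received the retroviral vector pMIR (3 libraries), the other the same vector carrying Sox2 (pMIR-Sox2, 3 libraries). Infection took place at 24 h and again at 48 h, and at 96 h the cells were sorted on mCherry, which the vector carries, so that both groups are infected cells. Sox2 is thus expressed from a vector in cells that hold little of it otherwise. Whether the libraries of a group come from different animals is not stated, and the p-values then measure only how far these libraries spread, which may be technical. A number in the sample descriptions (8, 9 or 12) joins each pMIR library to the pMIR-Sox2 library of the same replicate, as pairs 1, 2 and 3.

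Replication origins are licensed in G1 when ORC, Cdc6 and Cdt1 load the ring-shaped MCM helicase onto DNA. In S phase Cdc45 and GINS join the ring to make the active helicase, primase and polymerase alpha lay down primers, and polymerases held by the clamp Pcna extend them. Many of these genes are transcribed under E2F factors, which the retinoblastoma protein restrains in resting cells, and B cells stimulated through CD40 and with IL-4 enter repeated divisions.

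Each pMIR library held 21421769 to 27692437 gene counts, and each pMIR-Sox2 library 17153805 to 20770447. Levels below are CPM, a gene's share of its library's counts on the usual scale, corrected for library composition by the trimmed mean of M-values (TMM). CPM are relative, and in these bulk samples fewer cells in S phase and less RNA per cell cannot be told apart. Sox2 itself was read at 0.738, 0.334 and 1.78 CPM in pMIR replicates 1 to 3 and at 989, 786 and 624 CPM in pMIR-Sox2 replicates 1 to 3, with replicate 3 the lowest of its group. The 10 B cell markers summed to 15640 to 19066 CPM in pMIR and 9173 to 12286 CPM in pMIR-Sox2, and the 5 plasma cell markers to 902 to 1094 and 494 to 575 CPM. Most of the B cell sum came from Cd74 and Ighm, while Pax5 and Ebf1 were higher in each pMIR-Sox2 library than in any pMIR library. Most of the plasma cell sum came from Xbp1 and Irf4, while Prdm1 was higher in each pMIR-Sox2 library. The 8 T and NK cell markers were each under 1 CPM in every library. The 8 myeloid markers summed to 1.29 to 2.59 CPM in pMIR and 5.74 to 7.03 CPM in pMIR-Sox2, mostly from Itgam, with 6 of them under 1 CPM in every library. The 5 erythroid and platelet markers summed to 1.62 to 1.70 and 1.62 to 2.22 CPM, with the globins Hba-a1 and Hbb-b1 at 0. The 5 markers of stroma and endothelium summed to 21.9 to 33.6 and 50 to 63.3 CPM, nearly all from Pecam1. The part of these shifts in the results was not tested.

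Most members were lower with Sox2, by modest amounts. The log2 fold change was negative in 31 of 36 members, with a median of −0.28 against −0.02 over all genes tested. It ranged from −0.66 for Cdc6 to 0.52 for Pola1. In edgeR's quasi-likelihood test with Benjamini-Hochberg adjustment over all genes, 7 members fell, 1 rose and 28 did not pass. Over all genes tested 20% fell and 23.2% rose, 43.2% in all, against 19.4% and 2.78% of the members. This fit did not pair the libraries. In it the share of members called lower was near the background, and the share called higher was under it. The groups' libraries did not overlap, with pMIR-Sox2 below pMIR, in 11 members, against 27.6% of genes tested.

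**Figure D1:**
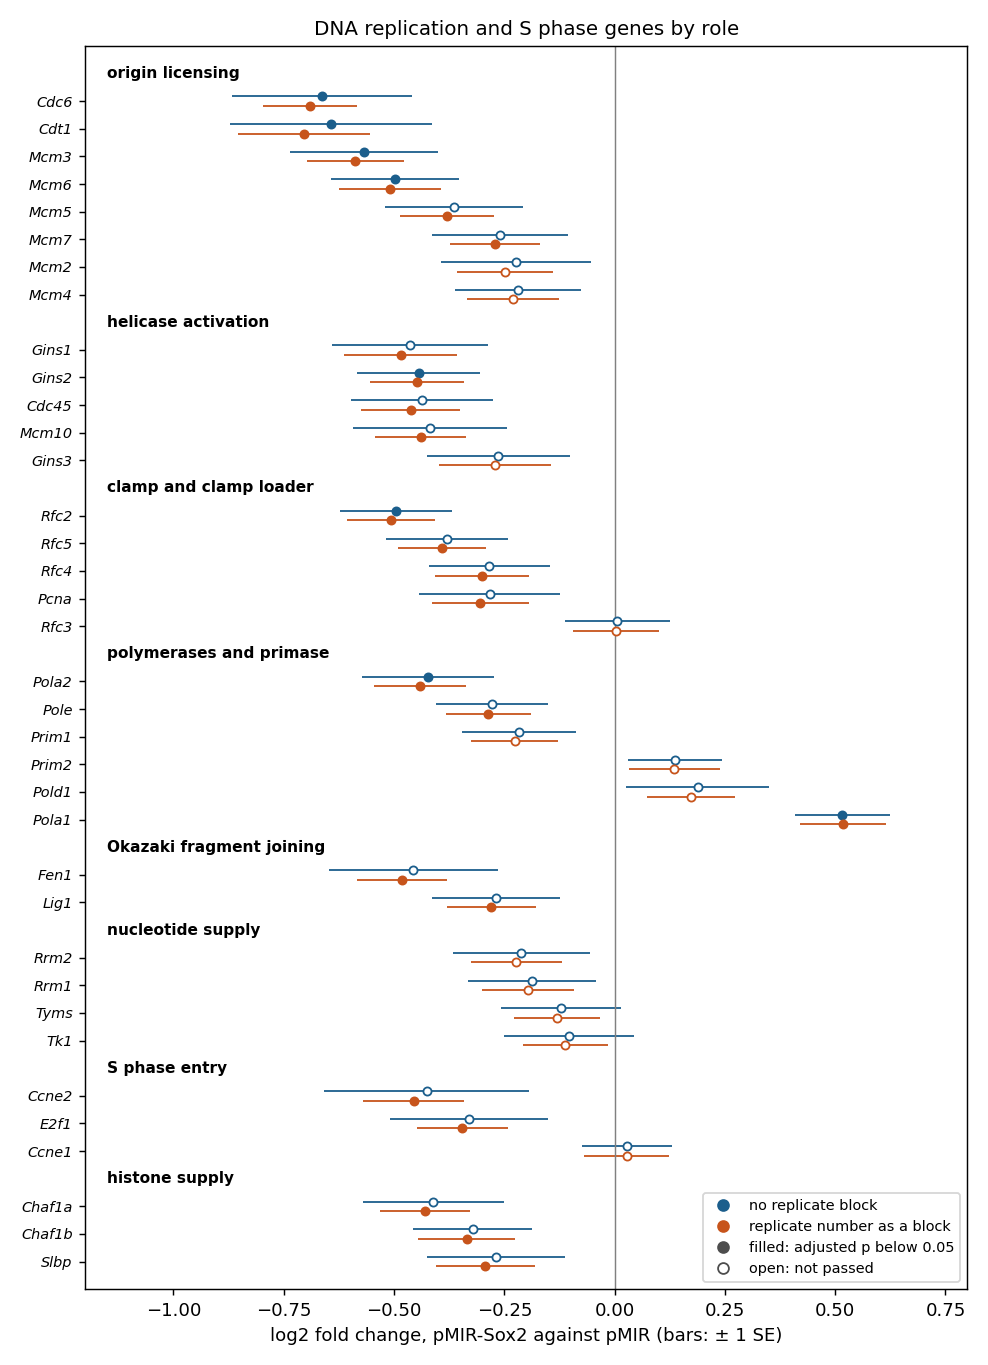
Log2 fold change of each of the 36 members in pMIR-Sox2 against pMIR (x axis, bars ± 1 SE), grouped by role, without the replicate block and with it. Most points lie left of 0 in both fits, and 7 falls pass the threshold (filled) without the block against 23 with it.

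The order of the libraries was partly shared between the groups. In pMIR, replicate 2 was the lowest library for 33 of 36 members, and in pMIR-Sox2 replicate 2 was again the lowest for 33 of 36. The highest library was not shared in this way. In pMIR it was replicate 1 for 20 members and replicate 3 for 16, whereas in pMIR-Sox2 it was replicate 3 for 33 and replicate 1 for 2. The members together held 6521, 5571 and 6311 CPM in pMIR replicates 1 to 3 and 5119, 4023 and 5850 CPM in pMIR-Sox2 replicates 1 to 3. The sum was lower with Sox2 in each pair, while pMIR-Sox2 replicate 3 lay above pMIR replicate 2.

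With the replicate number as a block in the same test, 23 members fell, 1 rose and 12 did not pass, so that 63.9% of the members fell, against 25.7% of all genes tested that fell and 27% that rose. All 7 members that fell without the block fell with it, and 16 more joined them. The median log2 fold change of the members was −0.30 in this fit. The median SE of the members went from 0.15 without the block to 0.10 with it, and over all genes from 0.15 to 0.12. Within the pairs, 28 of 36 members (77.8%) were lower in all 3 and 1 was higher in all 3, against 37.8% and 36.4% of genes tested.

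The pairs differed in size. The median log2 ratio of the members, pMIR-Sox2 over pMIR, was −0.36 in pair 1, −0.44 in pair 2 and −0.13 in pair 3. Lower members numbered 33 in pair 1, 33 in pair 2 and 29 in pair 3. Sox2 was read at 989, 786 and 624 CPM in the pMIR-Sox2 libraries of pairs 1 to 3. The pair with the least Sox2, pair 3, had the smallest median drop. The largest was in pair 2 and not in pair 1, which held the most Sox2. The part of the Sox2 level in the size of the difference was not tested. The same ratios over all genes had medians of −0.01, −0.03 and 0.00.

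**Figure D2:**
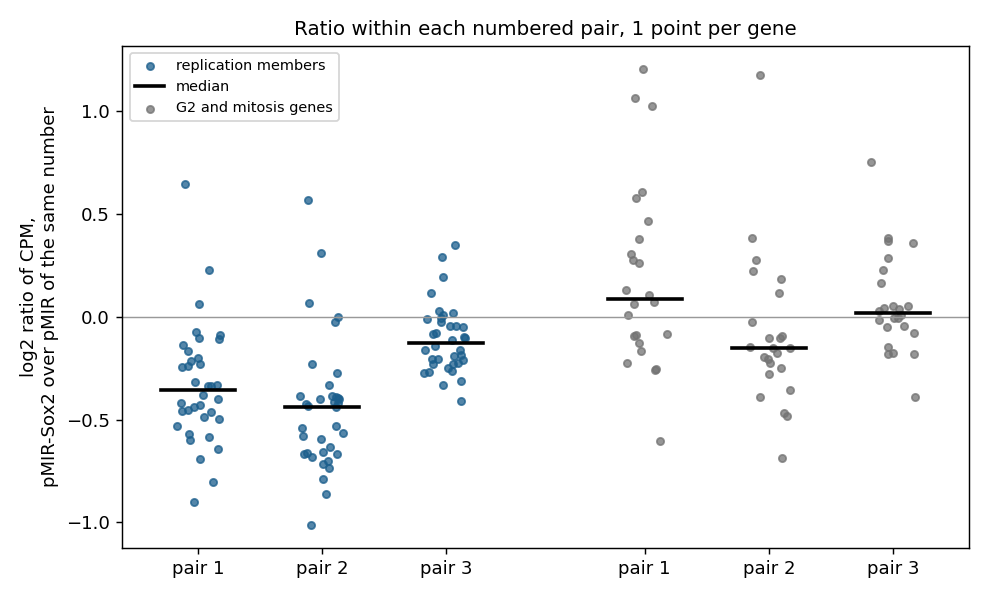
Log2 ratio of CPM within each numbered pair (y axis), 1 point per gene, for the 36 members and for 24 genes of G2 and mitosis, with black bars for the medians. The members' medians are −0.36, −0.44 and −0.13, and those of the G2 and mitosis genes are 0.09, −0.15 and 0.02.

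Without pairing, the number of calls moved with single libraries. Leaving out pMIR replicate 1 left 1 fall among the members. Leaving out pMIR replicate 3 left 2, and so did leaving out either pMIR-Sox2 replicate 1 or 2. Leaving out pMIR replicate 2 gave 8 falls, and leaving out pMIR-Sox2 replicate 3, whose summed level was nearest to pMIR, gave 22. With the block, leaving out a whole pair gave 12 falls without pair 1, 12 without pair 2 and 27 without pair 3. The 7 members that fell without the block all kept that call without pair 2 and without pair 3. Without pair 1, 5 of the 7 kept it, and Cdt1 and Gins2 lost it. Pola1 rose in each of these 9 fits. The median over the members was −0.44 when pMIR-Sox2 replicate 3 was left out and −0.17 when replicate 2 of that group was.

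Promoter sequence of 5 of the 8 members that changed without the block is shown because E2F factors are known regulators of this class. These are the 4 with the smallest adjusted p among those that hold an E2F motif, and Pola2, which holds none. Cdt1 also changed and holds 1 match after its start but is not printed, and Rfc2 and Gins2 are named only. The windows run from 250 bases before to 50 after each start of transcription, from RefSeq on GRCm38.p6, and 29 of the 36 members matched. The motif searched was TTTCGCGC, TTTGGCGC, TTTCCCGC or TTTGCCGC, on both strands, with overlapping matches counted. It was found in 11 of the 33 windows of members (33.3%), against 2.26% of all 32851 windows. Among the 100 wider replication genes described further on it was found in 23 of 107 windows (21.5%). Among genes of G2 and mitosis it was found in 1 of 23 windows (4.35%). A match describes letters in the window and does not show binding. The 150 bases before the start are printed 5′ to 3′ on the gene's strand, with matches in capitals. For Mcm3, whose matches lie after the start, only the 27 bases that span them are printed.
Pola1, chrX:93632156-93632305, minus strand: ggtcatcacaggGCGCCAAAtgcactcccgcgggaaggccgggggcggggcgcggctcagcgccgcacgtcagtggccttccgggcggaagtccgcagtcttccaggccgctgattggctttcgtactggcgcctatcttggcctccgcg
Mcm6, chr1:128359706-128359855, minus strand: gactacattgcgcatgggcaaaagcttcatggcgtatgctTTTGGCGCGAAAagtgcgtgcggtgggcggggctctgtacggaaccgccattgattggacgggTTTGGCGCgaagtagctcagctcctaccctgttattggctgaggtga
Mcm3, chr1:20820267-20820293, minus strand: GCGGGAAAacttgggaagtTTTGGCGC
Cdc6, chr11:98908001-98908150, plus strand: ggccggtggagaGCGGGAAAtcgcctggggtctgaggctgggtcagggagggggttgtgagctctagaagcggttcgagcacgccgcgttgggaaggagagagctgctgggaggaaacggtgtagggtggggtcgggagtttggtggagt
Pola2, chr19:5964207-5964356, minus strand: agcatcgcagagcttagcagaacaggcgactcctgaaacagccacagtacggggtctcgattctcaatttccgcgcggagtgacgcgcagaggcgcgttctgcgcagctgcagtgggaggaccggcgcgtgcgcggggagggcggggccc
Mcm6 held 3 matches, 2 of them overlapping on opposite strands, and Pola2 held none in its window. Pola1, which rose, and Cdc6, which fell, each held 1 match starting 138 bases before the start. A match was thus found both in the member that rose and in members that fell.

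Among the 8 genes of origin licensing, all 8 log2 fold changes were negative (median −0.43) and all 8 members were lower in each pair. Over all genes tested 37.8% were lower in all 3 pairs. Without the block 4 fell (50%), against 20% of all genes tested, and with it 6 (75%), against 25.7%. Mcm3 (ENSMUSG00000041859), a subunit of the MCM ring, was read at 571, 467 and 543 CPM in pMIR replicates 1 to 3 and 365, 271 and 431 CPM in pMIR-Sox2 replicates 1 to 3. Every pMIR-Sox2 library lay below every pMIR library, and replicate 3 came closest. The log2 fold change (± SE) was −0.57 ± 0.17, adjusted p = 0.0226, a change of −32.5%. Its call ended when pMIR replicate 1 (adjusted p = 0.0813), pMIR replicate 3 (0.0693) or pMIR-Sox2 replicate 1 (0.0582) was left out. With the block it was −0.59 ± 0.11, adjusted p = 0.000247.

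Mcm6 (ENSMUSG00000026355), another ring subunit, was read at 701, 608 and 597 CPM in pMIR and 463, 366 and 522 CPM in pMIR-Sox2. The groups did not overlap (−0.50 ± 0.15, adjusted p = 0.0212). The call ended without pMIR replicate 1 (adjusted p = 0.0865) and without pMIR-Sox2 replicate 2 (0.0547). Under the block Mcm6 fell as well (−0.51 ± 0.12, adjusted p = 0.00144). Mcm5 (−0.36) and Mcm7 (−0.26) did not pass without the block (adjusted p = 0.0881 and 0.2) and fell with it (adjusted p = 0.00657 and 0.0339). Mcm2 (−0.22) and Mcm4 (−0.22) passed in neither fit, with adjusted p = 0.0636 and 0.0723 under the block. The 6 subunits assemble into 1 ring, and their log2 fold changes ran from −0.57 for Mcm3 to −0.22 for Mcm4, with differences between them not tested.

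Cdc6 and Cdt1 load the ring onto origins. Cdc6 (ENSMUSG00000017499) was read at 80.4, 62.0 and 82.0 CPM in pMIR and 46.0, 34.1 and 61.6 CPM in pMIR-Sox2, with no overlap by a narrow margin, since pMIR replicate 2 and pMIR-Sox2 replicate 3 nearly met. Its log2 fold change was −0.66 ± 0.20, adjusted p = 0.027, the lowest of the 36, and with the block −0.69 ± 0.11, adjusted p = 4.41e-05. The unblocked call ended without pMIR replicate 1 (adjusted p = 0.0817), pMIR replicate 3 (0.0843), pMIR-Sox2 replicate 1 (0.0857) or pMIR-Sox2 replicate 2 (0.0554). Cdt1 (ENSMUSG00000006585) was read at 97.6, 86.9 and 102 CPM in pMIR and 52.4, 43.1 and 88.0 CPM in pMIR-Sox2. Here pMIR-Sox2 replicate 3 lay above pMIR replicate 2, so the groups overlapped. Its log2 fold change was −0.64 ± 0.23, adjusted p = 0.0482, and −0.99 without pMIR-Sox2 replicate 3. When any of the other 5 libraries was left out, the call ended (adjusted p from 0.0582 to 0.159). It held with the block (−0.70 ± 0.15, adjusted p = 0.00345), where it ended when pair 1 was left out (adjusted p = 0.069).

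The 5 genes that turn the loaded ring into the active helicase were also lower in each pair, with a median of −0.44. Of all genes tested 37.8% were lower in all 3 pairs. Without the block 1 of the 5 fell (20%), the same share as over all genes tested. With the block 4 fell (80%), against 25.7%. Gins2 (ENSMUSG00000031821), a GINS subunit, was read at 62.2, 48.6 and 56.6 CPM in pMIR and 38.5, 36.4 and 48.2 CPM in pMIR-Sox2, and its groups were separated by less than 1 CPM. It was the member of this role that fell without the block (−0.44 ± 0.14, adjusted p = 0.0279). The call ended without pMIR replicates 1 or 3 or pMIR-Sox2 replicates 1 or 2, with adjusted p from 0.0786 to 0.109. With the block it held (adjusted p = 0.00211) but ended when pair 1 was left out (adjusted p = 0.0628). Gse1 shares 67.3% of the annotated Gins2 exon bases on the other strand and was higher with Sox2 (0.48, adjusted p = 0.00632). Whether the counting used strand is not given in the sources used here. Gins1 (−0.46), Cdc45 (−0.44), the helicase partner of GINS, and Mcm10 (−0.42), an initiation factor, did not pass without the block and fell with it (adjusted p = 0.00413, 0.00264 and 0.0018). Gins3, the member with the lowest level per kilobase, was read at 17.1, 15.0 and 18.5 CPM in pMIR and 14.7, 11.2 and 16.2 CPM in pMIR-Sox2 and passed in neither fit (−0.26 ± 0.16, adjusted p = 0.22, and adjusted p = 0.0825 with the block).

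Among the clamp and its loader, Rfc2 (ENSMUSG00000023104), a small subunit of the loader, was read at 147, 137 and 151 CPM in pMIR and 98.7, 88.6 and 122 CPM in pMIR-Sox2. The groups did not overlap, and the log2 fold change was −0.50 ± 0.13, adjusted p = 0.0116. Rfc2 was the 1 fall among the members that passed in each of the 6 fits that left out a library. Its neighbour Lat2, which shares 15.1% of its exon bases on the other strand, was also lower (−1.32, adjusted p = 0.000523). Rfc5 (−0.38) and Rfc4 (−0.28) did not pass without the block and fell with it (adjusted p = 0.00305 and 0.0256). Rfc3, of the same complex, was read at 61.1, 51.5 and 59.2 CPM in pMIR and 58.0, 50.6 and 64.0 CPM in pMIR-Sox2, with a log2 fold change of 0.01 ± 0.12, adjusted p = 0.973. On the other strand Wsb2 shares 10.7% of the Rfc5 exon bases and was higher (1.37, adjusted p = 0.000131). Eif4a2 shares 12.7% of those of Rfc4 and did not pass (−0.37, adjusted p = 0.0847).

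Pcna (ENSMUSG00000027342), the clamp that holds the polymerases on DNA, had the highest level per kilobase of exon of all members, 147 CPM per kb in pMIR and 121 CPM per kb in pMIR-Sox2. It was read at 371, 320.2 and 368 CPM in pMIR and 269, 236 and 365 CPM in pMIR-Sox2. In pairs 1 and 2 it was lower with Sox2, and in pair 3 the libraries were nearly equal. It did not pass without the block (−0.28 ± 0.16, adjusted p = 0.182) and fell with it (−0.30 ± 0.11, adjusted p = 0.0283). Pseudogenes of Pcna and of Tyms are annotated, so the counts of these genes are less certain.

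The polymerases and primase went both ways. Pola1 (ENSMUSG00000006678), the catalytic subunit of polymerase alpha, was read at 73.5, 86.5 and 87.4 CPM in pMIR and 115, 128 and 111 CPM in pMIR-Sox2. All pMIR-Sox2 libraries lay above all pMIR libraries. It rose (0.52 ± 0.11, adjusted p = 0.00467, a change of 43.0%), and did so in every alternative fit run. Pola2 (ENSMUSG00000024833), the second subunit of the same enzyme, was read at 91.2, 79.7 and 88.7 CPM in pMIR and 66.6, 50.3 and 76.9 CPM in pMIR-Sox2 and fell (−0.42 ± 0.15, adjusted p = 0.0459). The Pola2 call ended without pMIR replicates 1 or 3 or pMIR-Sox2 replicates 1 or 2 (adjusted p from 0.0972 to 0.130), and its log2 fold change was −0.27 without pMIR-Sox2 replicate 2. It held with the block (−0.44 ± 0.10, adjusted p = 0.00184).

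Of the 2 primase subunits, Prim1 was slightly lower (−0.22 ± 0.13, adjusted p = 0.207) and Prim2 slightly higher (0.14 ± 0.11, adjusted p = 0.327), and neither passed with the block (adjusted p = 0.0627 and 0.283). Pole, the catalytic subunit of the leading strand polymerase epsilon, did not pass without the block (−0.28 ± 0.13, adjusted p = 0.106) and fell with it (adjusted p = 0.0188). Pold1, the catalytic subunit of polymerase delta, was read at 167, 156 and 197 CPM in pMIR and 196, 155 and 241 CPM in pMIR-Sox2 and did not pass (0.19 ± 0.16, adjusted p = 0.375, and adjusted p = 0.155 with the block). Its groups overlapped widely.

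**Figure D3:**
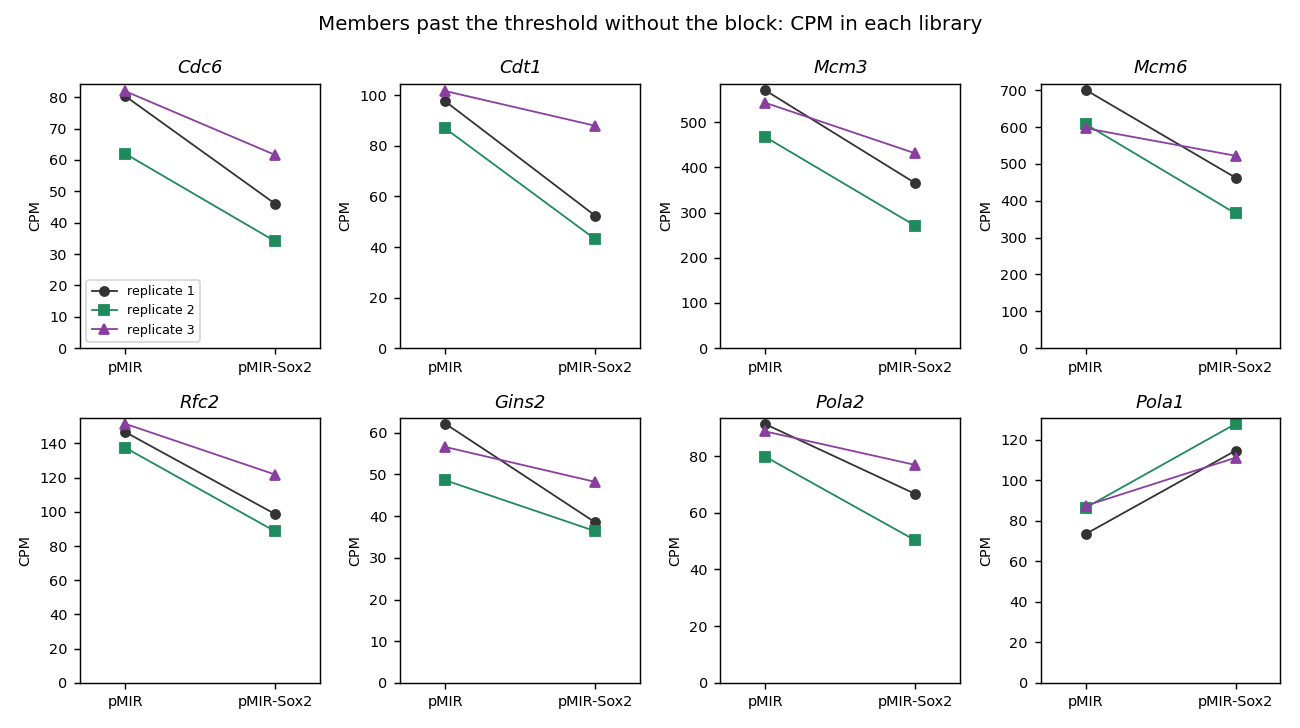
CPM in each library (y axis, from 0) of the 8 members past the threshold without the block, with lines joining the libraries of 1 replicate number. The lines of the 7 falls go down in each pair, least in replicate 3, and the lines of Pola1 go up.

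Fen1, the flap nuclease that trims Okazaki fragments, was read at 181, 144 and 188 CPM in pMIR and 128, 89.8 and 156 CPM in pMIR-Sox2, with pMIR-Sox2 replicate 3 above pMIR replicate 2. It did not pass without the block (−0.46 ± 0.19, adjusted p = 0.0821) and fell with it (−0.48 ± 0.10, adjusted p = 0.000789). The antisense gene Gm10143 shares 78.8% of its exon bases and was itself lower (−0.65, adjusted p = 0.0149). Lig1, the ligase that seals the fragments, showed the same pattern (−0.27 ± 0.15, adjusted p = 0.166, and adjusted p = 0.0274 with the block).

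None of the 4 genes of nucleotide supply passed in either fit, against 43.2% of all genes tested that passed without the block. Rrm2, the small subunit of ribonucleotide reductase that S phase cells use, was read at 355, 279 and 315 CPM in pMIR and 301, 214 and 306 CPM in pMIR-Sox2 (−0.21 ± 0.16, adjusted p = 0.299, and adjusted p = 0.0791 with the block). Rrm1, the large subunit, had −0.19, thymidylate synthase Tyms −0.12 and thymidine kinase Tk1 −0.10. In pair 3 the Sox2 library was slightly above its partner for both Tyms and Tk1. In edgeR without the block 0 of these 4 had an unadjusted p under 0.05, and 0 were called by DESeq2 or limma-voom, also without the block.

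Of the genes of S phase entry, E2f1, an activating E2F factor, was read at 51.0, 42.7 and 57.6 CPM in pMIR and 36.4, 32.6 and 51.5 CPM in pMIR-Sox2, and its groups overlapped. It did not pass without the block (−0.33 ± 0.18, adjusted p = 0.166) and fell with it (adjusted p = 0.0096), as did Ccne2, a cyclin E (−0.43, adjusted p = 0.168 and 0.00295). Ccne1, the other cyclin E, was read at 52.5, 47.6 and 48.7 CPM in pMIR and 54.9, 49.8 and 47.1 CPM in pMIR-Sox2, with overlapping groups (0.03 ± 0.10, adjusted p = 0.84). Ints8 shares 17.4% of the Ccne2 exon bases on the other strand and was higher with Sox2 (0.33, adjusted p = 0.0164).

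Histone supply during S phase rests on Slbp, which binds histone messenger RNA, and on chromatin assembly factor 1. Its subunit Chaf1a was read at 112, 91.6 and 103 CPM in pMIR and 86.0, 57.9 and 87.0 CPM in pMIR-Sox2, with groups that did not overlap (−0.41 ± 0.16, adjusted p = 0.0636). Chaf1a, Chaf1b (−0.32) and Slbp (−0.27) did not pass without the block and fell with it (adjusted p = 0.00197, 0.0165 and 0.0392). Ubxn6 shares 52.5% of the Chaf1a exon bases on the other strand and did not pass (0.04, adjusted p = 0.791).

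Per kilobase of exon, a scale on which genes can be ranked, the members of highest level in pMIR were Pcna (147 CPM per kb), Mcm3 (140.4), Mcm6 (136), Rrm2 (114), Mcm5 (106) and Mcm4 (99.2). The lowest were Gins3 (6.23), Ccne2 (8.64), Prim2 (9.14) and Pola1 (9.36). In pMIR-Sox2 the order at the top was Pcna (121), Rrm2 (98.7), Mcm6 (96.5), Mcm3 (94.8), Mcm4 (85.3) and Mcm5 (82.5). The neighbours from Rrm2 to Mcm3 differed by less than their spread over libraries. These lengths are the merged exons of GENCODE M21, which include alternative exons that B cells may not use.

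Some partners of 1 complex shifted unequally within the same library. The ratios here were picked after the values were seen and are given as a description, with no test. The log2 ratio of Pola1 to Pola2 was −0.31, 0.12 and −0.02 in pMIR and 0.78, 1.35 and 0.53 in pMIR-Sox2. That of Mcm3 to Mcm2 was 1.11 ± 0.10 in pMIR and 0.77 ± 0.08 in pMIR-Sox2 (mean ± SD, n = 3). For Rfc2 to Rfc3 it was 1.34 ± 0.08 in pMIR and 0.83 ± 0.08 in pMIR-Sox2. For Pold2, an accessory subunit of polymerase delta, to Pold1 it was −1.03 ± 0.10 in pMIR and −1.91 ± 0.06 in pMIR-Sox2. In each of these the groups did not overlap. A ratio shows that the shifts were unequal and not which partner was stable.

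**Figure D4:**
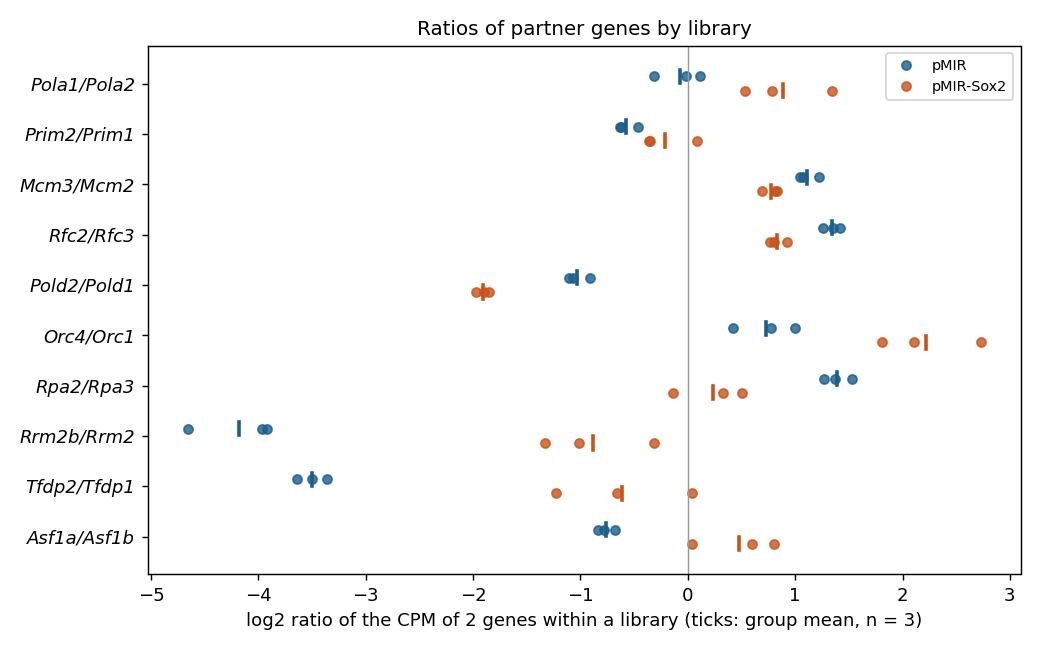
Log2 ratio of the CPM of 2 genes within each library (x axis) for 10 gene pairs, with ticks for group means (n = 3). Rrm2b/Rrm2, Tfdp2/Tfdp1 and Asf1a/Asf1b pair related genes of the same role, and the others pair genes of the same complex. The groups do not overlap in any of the 10, and Rrm2b/Rrm2 and Tfdp2/Tfdp1 lie farthest apart. The gene pairs were picked after their values were seen, so this lack of overlap is a description only.

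A wider list of 100 replication genes outside the 36 held 28 that fell and 14 that rose without the block. The median was −0.24, and 58 did not pass. Over all genes tested 20% fell and 23.2% rose. With the block 50 of the 100 fell and 14 rose, against 25.7% and 27% of all genes tested. The falls without the block numbered from 11 (without pMIR replicate 3) to 46 (without pMIR-Sox2 replicate 3). They were 12 without pMIR replicate 1 and 16 without either of pMIR-Sox2 replicates 1 and 2, and the rises were 9 without pMIR replicate 3. Of the 100, 61 were lower in all 3 pairs, against 37.8% of genes tested. The list was written with earlier results of these data known, so its shares are a description only.

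Of 19 genes of origin recognition and firing, 6 fell (31.6%), 1 rose (5.26%) and 12 did not pass, and 8 fell with the block (42.1%). Over all genes tested 20% fell and 23.2% rose, and 25.7% fell with the block. Orc4 and Orc1 are subunits of the complex that marks origins. Orc4 was read at 40.6, 47.3 and 42.6 CPM in pMIR and 83.1, 86.8 and 73.7 CPM in pMIR-Sox2 and rose (0.90 ± 0.11, adjusted p = 0.000279). Orc1 was read at 30.3, 23.6 and 24.9 CPM in pMIR and 19.2, 13.1 and 21 CPM in pMIR-Sox2 and fell (−0.57 ± 0.18, adjusted p = 0.0318), a call lost without pMIR replicates 1 or 3 or pMIR-Sox2 replicates 1 or 2 (adjusted p from 0.0599 to 0.121). Recql4, a helicase needed for initiation, fell from 26.3 ± 2.48 to 16.3 ± 4.28 CPM (SD, n = 3, −0.70 ± 0.19, adjusted p = 0.0158). Without pMIR replicate 1 its adjusted p was 0.0579, and without pMIR replicate 3 0.0502. Under the block Orc1 and Recql4 fell with adjusted p = 0.00104 and 0.000134.

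Of 17 genes of fork protection and the replication checkpoint, 4 fell (23.5%), 1 rose (5.88%) and 12 did not pass. The share that fell was near the 20% of all genes tested, and the share that rose was under their 23.2%. With the block 8 fell (47.1%), against 25.7% of all genes tested. Rpa2 and Rpa3 belong to the trimer that coats single-stranded DNA. Rpa2 was read at 114, 92.5 and 101 CPM in pMIR and 61.2, 46.2 and 74.8 CPM in pMIR-Sox2 and fell (−0.76 ± 0.17, adjusted p = 0.00598), while Rpa3 was read at 39.6, 38.4 and 39.2 CPM in pMIR and 48.7, 50.8 and 52.6 CPM in pMIR-Sox2 and rose (0.38 ± 0.09, adjusted p = 0.00976). Rad1, of the checkpoint clamp, fell (−0.41 ± 0.12, adjusted p = 0.0237). Its call ended without pMIR replicate 3 (0.0938), pMIR-Sox2 replicate 1 (0.0823) or pMIR-Sox2 replicate 2 (adjusted p = 0.0711), and with the block it ended without pair 1 (adjusted p = 0.0505).

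Of 11 polymerase subunits and nucleases, 4 fell (36.4%), 2 rose (18.2%) and 5 did not pass, and 7 fell with the block (63.6%). Of all genes tested 20% fell and 23.2% rose, and with the block 25.7% fell. The polymerase delta subunits Pold4 (−0.90 ± 0.17, adjusted p = 0.00305) and Pold2 (−0.69 ± 0.16, adjusted p = 0.00665) fell, Pold2 with libraries at 88.9, 74.1 and 91.7 CPM in pMIR and 49.9, 43.1 and 64.7 CPM in pMIR-Sox2. Rnaseh2a, the catalytic subunit of a nuclease that removes RNA from DNA, fell from 55.8 ± 2.97 to 39.2 ± 2.61 CPM (−0.51 ± 0.10, adjusted p = 0.00356).

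Of 15 genes of nucleotide supply, 7 fell (46.7%), 2 rose (13.3%) and 6 did not pass, and 10 fell with the block (66.7%). Among all genes tested 20% fell and 23.2% rose, and 25.7% fell with the block. Rrm2b encodes the small subunit of ribonucleotide reductase used outside S phase and is a known p53 target. It was read at 14, 18.4 and 20.1 CPM in pMIR and 149, 172 and 121 CPM in pMIR-Sox2 and rose (3.07 ± 0.18, adjusted p = 9.35e-06). The log2 ratio of Rrm2b to Rrm2 was −4.18 ± 0.41 in pMIR and −0.89 ± 0.52 in pMIR-Sox2, with no overlap. Ctps, which makes CTP, fell from 91.9 ± 14.2 to 48.6 ± 9.89 CPM (−0.92 ± 0.17, adjusted p = 0.00236). Dck, the kinase that salvages deoxycytidine, rose from 80.7 ± 3.10 to 114 ± 6.19 CPM (0.49 ± 0.09, adjusted p = 0.00269).

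Of 25 genes of the E2F and RB network and S phase kinases, 5 fell (20%), 6 rose (24%) and 14 did not pass. These shares were near those over all genes tested, 20% and 23.2%. With the block 10 fell (40%), against 25.7% of all genes tested. The rises with the smallest adjusted p were of genes known for the step from G1 to S phase. Rb1, the retinoblastoma protein that restrains E2F factors, was read at 72.7, 92.1 and 86.7 CPM in pMIR and 319.6, 362 and 247 CPM in pMIR-Sox2 (1.88 ± 0.16, adjusted p = 4.67e-05). Cdkn2c, the CDK4 and CDK6 inhibitor p18, was read at 21.2, 21.1 and 25.3 CPM in pMIR and 153, 127 and 103 CPM in pMIR-Sox2 (2.50 ± 0.16, adjusted p = 1.47e-05). Tfdp2, a DNA-binding partner of E2F factors, was read at 21.7, 19.8 and 24.3 CPM in pMIR and 115, 133 and 84.2 CPM in pMIR-Sox2 (2.34 ± 0.17, adjusted p = 2.88e-05). For each of the 3 genes the groups were far apart, and pMIR-Sox2 replicate 3 was the lowest of its group. The highest was replicate 2 for Rb1 and Tfdp2 and replicate 1 for Cdkn2c. Any link between these rises and the members was not tested.

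Of 13 genes of chromatin assembly, 2 fell (15.4%), 2 rose (15.4%) and 9 did not pass, and 7 fell with the block (53.8%). The shares without the block were under those of all genes tested, 20% and 23.2%. With the block 25.7% of all genes tested fell. Asf1a, a histone chaperone, rose from 55.9 ± 5.48 to 108 ± 12.9 CPM (0.95 ± 0.12, adjusted p = 0.00038), while its paralog Asf1b did not pass (−0.28 ± 0.12, adjusted p = 0.0947) and fell with the block (adjusted p = 0.0221). Lsm11, of the particle that processes histone messenger RNA, fell from 19.5 ± 0.799 to 12.8 ± 0.953 CPM (−0.61 ± 0.12, adjusted p = 0.00363). Rbbp4, a histone-binding subunit of chromatin assembly factor 1 and other complexes, rose (0.39 ± 0.10, adjusted p = 0.0129). Its call ended without pMIR replicate 2 (0.0549) or pMIR replicate 3 (adjusted p = 0.0686), and with the block it ended without pair 2 (adjusted p = 0.0935).

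**Figure D5:**
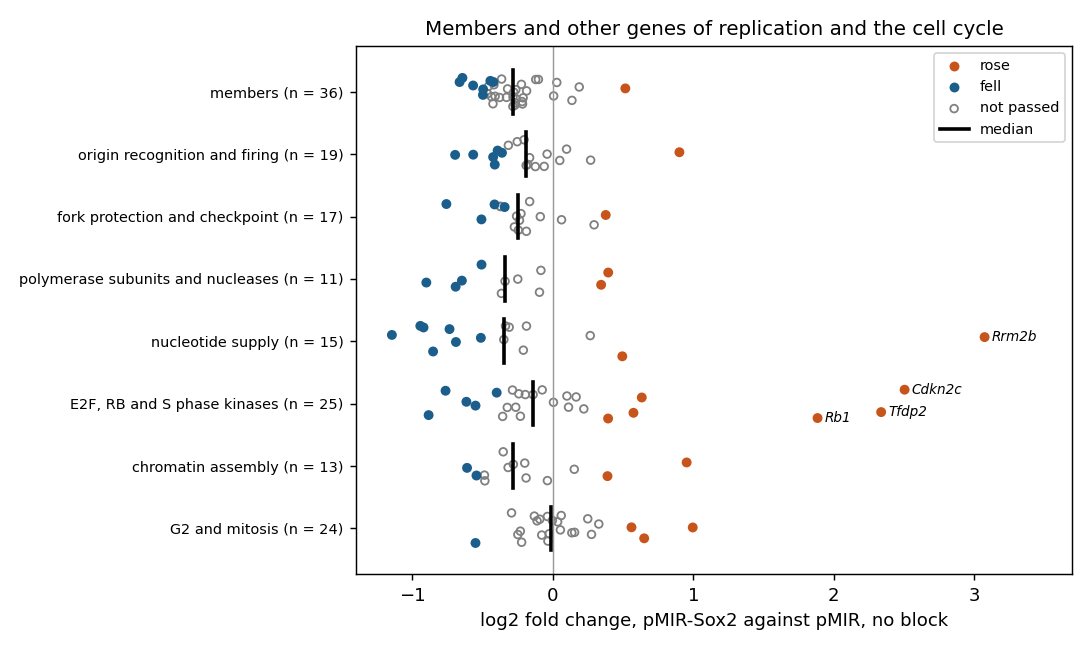
Log2 fold change without the block (x axis) of the 36 members, the 6 wider lists and the G2 and mitosis genes, 1 point per gene, filled where the threshold was passed, with black bars for medians. The members' median is −0.28 and that of the G2 and mitosis genes −0.01, and Rrm2b, Cdkn2c, Tfdp2 and Rb1 of the wider lists lie far to the right.

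Genes of G2 and mitosis, the phase that follows S phase, were set beside the members as another reading of cycling cells. Of 24, 1 fell (4.17%), 3 rose (12.5%) and 20 did not pass, against 20% and 23.2% of all genes tested. The median log2 fold change was −0.01, and 8 (33.3%) were lower in all 3 pairs, against 37.8% of genes tested. With the block 3 fell (12.5%) and 6 rose, against 25.7% and 27% of all genes tested. Nusap1, a spindle protein, rose from 147 ± 12.3 to 293 ± 20.2 CPM (1.00 ± 0.11, adjusted p = 0.000154), as did the kinetochore proteins Cenpf (0.65 ± 0.16, adjusted p = 0.00866) and Cenpe (0.56 ± 0.14, adjusted p = 0.0104). Without pair 1 and with the block the log2 fold changes were 0.39 for Cenpf and 0.35 for Cenpe. The fall was Kif20a (−0.55 ± 0.14, adjusted p = 0.0134), and its call ended without pMIR replicate 1 (adjusted p = 0.0558). Under the block Kif20a fell with adjusted p = 0.000135. Rises numbered 6 without pMIR-Sox2 replicate 2, and falls 4 without pMIR-Sox2 replicate 3. The difference between this list and the members was not tested.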

How the data were processed

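The authors deposited 1 table of raw counts, per the file headers, in which 37620 genes are named by Ensembl identifier and symbol for the 6 libraries. The submitters' processing notes list HTSeq 0.6.1p1, SAMtools 0.1.19, TopHat2 2.0.11 with Bowtie2 2.2.2, Trimmomatic 0.32 and mm9, without saying what each did. The strand setting of the counting is not given in the sources used here, and 13 members share exon bases with a gene on the other strand. At its end the table has 5 lines that name no gene, and these were left out of all sums and tests. Genes took 51.9 to 53.2% of a library's total, alignments that were not unique 23.1 to 26.5%, reads in no feature 11.4 to 14.6%, reads not aligned 8.51 to 9.65% and ambiguous reads 0.283 to 0.307%.

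Columns were matched to samples by the sample descriptions. The test was that of edgeR 4.0.16 under R 4.3.3 (filterByExpr, TMM, robust quasi-likelihood fits, Benjamini-Hochberg adjustment over 12899 genes, threshold 0.05). SE is the log2 fold change over the square root of F. Sox2 entered the fits but no count of genes. Replicates of a group differed beyond sampling noise. The same numbers in the 2 groups pair the libraries: deviations from the group mean correlated at 0.24, 0.36 and 0.19 for numbers 1, 2 and 3 over 12899 genes, each above 0.1. No label says what the number marks. The fit without the block was the main one, since no source states a paired test.

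Alternatives were the replicate block, DESeq2 1.42.0 size factors and Wald test, limma-voom 3.58.1, library totals only, 2 other filters and leaving out libraries or pairs. GENCODE M21 (GRCm38), another build than mm9, served for names, exon lengths and overlaps. It matched 4 genes of the lists by identifier where the table's symbol differs or occurs more than once.

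The members and lists were chosen with earlier results of these data known. Every member gets a fold change. Library values are given by rule for the 3 smallest adjusted p in either fit, the highest and lowest level per kb and the smallest adjusted p of each role, and for Cdt1, Pola2, Rfc3, Pold1 and Ccne1, added after their values were seen. From each other list up to 3 genes past the threshold were named. Asf1b and Kif20a were named after their values were seen.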

Additional observations from a re-analysis of the deposited data

How the results depend on the processing

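Of the 42 genes named with a call, 42 kept their direction and 23 their call in every alternative. The members that fell numbered 7, against 23 with the replicate block, which the pairing of libraries calls for, and 4 with library totals only, which lost Cdt1, Gins2 and Pola2. DESeq2's Wald test and limma-voom each gave 10. The range over single libraries left out was 1 to 22, and over whole pairs left out with the block 12 to 27. Of the wider list 28 fell, against 50 with the replicate block (11 to 46 over single libraries and 28 to 56 over pairs with the block), and 14 rose (9 to 14 and 13 to 15). Of the G2 and mitosis genes 3 rose, against 6 with the replicate block, 6 with library totals only and 5 by DESeq2's Wald test (3 to 6 and 4 to 5), and 1 fell, against 3 with the replicate block (0 to 4 and 1 to 4). The cause was not tested. Over all genes 2990 rose (2362 to 3321 and 2731 to 3743) and 2577 fell (1783 to 2885 and 2295 to 3316).

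Library totals moved the median of all genes from −0.02 to 0.06, and 31 of 36 members stayed negative. Without the low-count filter 9 members fell, and Cdc6 and Cdt1 lost their calls (adjusted p = 0.0595 and 0.207). Direction changed for 3 members near 0. Over single libraries left out, the log2 fold change ran from −0.070 to 0.092 for Rfc3, from −0.028 to 0.086 for Ccne1 and from −0.21 to 0.0097 for Tyms. For Rfc3 it was −0.035 without pair 3 and with the replicate block.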

Other observations

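The genes of nucleotide supply below lie outside the naming rule and were picked after their values were seen. All are among the 7 falls already counted in the wider list of nucleotide supply, so they are no further falls. The 2 rises of that list and the 6 genes that did not pass are not repeated here. In pyrimidine synthesis Cad, which starts the pathway, fell from 231 ± 50.2 to 128 ± 43.4 CPM (SD, n = 3), with edgeR adjusted p = 0.0231. Umps, which completes uridine monophosphate, fell from 89.0 ± 14.2 to 53.5 ± 12.2 CPM (adjusted p = 0.00939). Uck2, a uridine kinase, fell (log2 fold change −0.51, adjusted p = 0.0151), as did Dctd, a deoxycytidylate deaminase (from 16.6 ± 2.74 to 7.49 ± 3.07 CPM, adjusted p = 0.0107). Shmt1, of folate metabolism, fell from 91.7 ± 21.7 to 47.7 ± 17.3 CPM (adjusted p = 0.0207). Samhd1, which degrades deoxynucleotides, fell from 383 ± 91.4 to 237 ± 21.6 CPM (adjusted p = 0.00911). The calls of Cad, Uck2 and Shmt1 ended without pMIR replicate 1 (adjusted p = 0.0813, 0.065 and 0.0751) or pMIR replicate 3 (0.0591, 0.0531 and 0.0528), and that of Shmt1 also without pMIR-Sox2 replicate 1 (0.0531). Under the block Cad, Uck2 and Shmt1 fell with adjusted p = 2.11e-06, 0.000267 and 1.42e-05.

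Regulators of the G1 to S step, picked in the same way, went both ways. They too are among the calls already counted, in the wider list of the E2F and RB network. The CDK inhibitor Cdkn1b (p27) rose from 90.2 ± 18.2 to 134 ± 15.9 CPM (adjusted p = 0.0158, and 0.0505 without pMIR-Sox2 replicate 2). The inhibitor Cdkn1a (p21) fell from 93.3 ± 29.9 to 50.5 ± 15.2 CPM (adjusted p = 0.026). In the fit without the block, Cdkn1a lost its call without pMIR replicate 1 (0.096), pMIR replicate 3 (0.0651) or pMIR-Sox2 replicate 2 (adjusted p = 0.102). Under the block Cdkn1a fell with adjusted p = 1.06e-06, and its log2 ratios in pairs 1 to 3 were −0.88, −0.80 and −0.95. E2f4, mostly a repressor, fell from 166 ± 9.56 to 108 ± 13.6 CPM (adjusted p = 0.00258). Its relative E2f5 rose from 10.3 ± 1.53 to 16 ± 3.03 CPM (adjusted p = 0.0188), a call lost without pMIR replicates 2 or 3 or pMIR-Sox2 replicates 1 or 2 (adjusted p from 0.0582 to 0.0723), and with the block without pair 2 (adjusted p = 0.0583). Tfdp1 fell from 248 ± 23.5 to 169 ± 35 CPM (adjusted p = 0.0188) while Tfdp2 rose. The log2 ratio of Tfdp2 to Tfdp1 was −3.64, −3.50 and −3.36 in pMIR and −0.66, 0.04 and −1.22 in pMIR-Sox2, with no overlap. The Tfdp1 call ended without pMIR replicate 1 (0.0721) or pMIR replicate 3 (adjusted p = 0.054), and under the block it held (adjusted p = 0.000226). Mybl2, a transcription factor of cycling cells, fell from 108 ± 25.6 to 63.4 ± 16.4 CPM (adjusted p = 0.0225). That call ended without pMIR replicates 1 or 3 or pMIR-Sox2 replicates 1 or 2 (adjusted p from 0.0517 to 0.0808). Under the block Mybl2 fell with adjusted p = 4.62e-06. Without the low-count filter the calls of Cad, Shmt1, Cdkn1a and Mybl2 ended (adjusted p from 0.129 to 0.201).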
